A study of Homo sapiens with 6 samples.

Results

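The TRIM family of ubiquitin ligases was taken as the genes whose symbol is TRIM followed by a number in the platform annotation, without pseudogenes, antisense or readthrough genes. There were 55 such genes among 19775 with a probe set of 1 gene, and 39 of them passed the filter on low values, as did 13594 genes in all. A gene passed when its highest log2 value reached the median of all values, 3.66, and each gene was read from its probe set with the highest mean. The 16 members that stayed below the filter on all arrays were TRIM2, TRIM6, TRIM9, TRIM17, TRIM32, TRIM40, TRIM42, TRIM51, TRIM54, TRIM55, TRIM58, TRIM59, TRIM61, TRIM63, TRIM68 and TRIM72, with TRIM2 highest among them at 3.51. Of the 39 that passed, 36 lay above the filter on all 6 arrays, and TRIM31 passed through the 24 h array alone. All values are on the log2 scale unless given as a fold, and levels of different probe sets are not compared, because they do not share a scale.

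TRIM proteins share an amino-terminal tripartite motif, in most members a RING finger, B-boxes and a coiled coil, and differ in the domain that follows it. The RING finger recruits ubiquitin-loaded E2 enzymes, so most members act as E3 ubiquitin ligases, and the carboxy-terminal domain, often B30.2/SPRY, picks the target. Several members restrict viruses or set the strength of RNA and DNA sensing, and some are themselves targets of interferon. PML, the partner of RARA in the fusion of acute promyelocytic leukaemia, is also known as TRIM19.

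The cells were NB4, an established human line of acute promyelocytic leukaemia with the PML-RARA fusion. All-trans retinoic acid (ATRA), a ligand of retinoic acid receptors under which such cells mature toward neutrophils, was given at 1e-06 M. There was 1 array at each of 4, 12, 24, 48 and 72 h of treatment, and 1 array of untreated cells (0 h). Since no time has a replicate and hours in ATRA are also hours in culture, treatment and culture time cannot be told apart, and a difference between 2 arrays has no test.

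The arrays had medians of 3.64 to 3.69. The spiked control bioC averaged 8.01 and 8.11 on the 0 and 12 h arrays and 6.88 to 7.17 on the others, and a probe set for the 5' end of 28S ribosomal RNA read 10.3 at 12 h, 9.51 at 48 h and 9.63 at 72 h, against 6.77 in untreated cells. The part of the ribosomal RNA signal in the results was not tested. The promyelocyte marker MPO read 12.90 in untreated cells. Of 10 monocyte and macrophage markers, 7 stayed below the filter, CD14 at or below 3.59 among them. The summed linear level of all 10 was 204 at 72 h, against 85.7 in untreated cells. The 3 above the filter were all 2-fold or more higher at 72 h (10.9% of all genes), ADGRE1 and CD86 rising by the limma test (8.33%). CD163 read 4.89 at 72 h, against 3.35, below the filter, in untreated cells, without a called trend (limma adjusted p = 0.103). For 7 lymphoid and erythroid markers the summed level was 742 at 72 h, against 438 in untreated cells. Most of both came from NKG7, which was not called (limma adjusted p = 0.075). These sums add probe sets that do not share a scale, so the weight of a gene in them is not a share of RNA. CD79A and GNLY rose, 2 of the 6 above the filter (8.33% of all genes). GNLY passed the filter on the 72 h array alone (4.12, against 3.15 in untreated cells). The part of such cells in the results was not tested. In such bulk RNA, fewer cells of a type and less RNA per cell cannot be told apart.

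Most TRIM genes stayed near their untreated level, while a smaller set was far higher at 48 and 72 h. At 72 h, 10 of the 39 members (25.6%) were 2-fold or more higher than in untreated cells, against 10.9% of all genes. These were TRIM22, TRIM69, TRIM38, TRIM5, TRIM25, TRIM21, TRIM56, TRIM14, TRIM26 and TRIM8. The 4 members TRIM16, TRIM65, TRIM28 and TRIM71 were 2-fold or more lower (10.3%, with 12.2% of all genes). A line over the order of the times, fitted with limma and called at an adjusted p under 0.05, rose for 7 members (17.9%, with 8.33% of all genes) and fell for 3 (7.69%, with 9.86% of all genes). The SE and p of such a line measure scatter of the arrays about it, bends included, not variation between replicate cultures. With bioC as a covariate 6 members rose (4.94% of all genes). Within the 4, 24, 48 and 72 h arrays, which share a bioC level, 2 rose (TRIM25 and TRIM69, with 9 at an unadjusted p under 0.05, and 2.2% of all genes). Against the 4 h array 9 members were 2-fold higher at 72 h and 2 lower (10.1 and 10.4% of all genes). These arrays were grouped after the data were seen. The shares of lower and falling members were near those of all genes. Before 48 h few members differed. None was 2-fold higher or lower at 12 h (2.3 and 1.93% of all genes), and at 24 h 3 were higher and none lower (3.35 and 1.99%). At 48 h 7 members were higher (5.83% of all genes). The median difference at 72 h was 0.20 over the members and -0.06 over all genes.

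**Figure D1:**
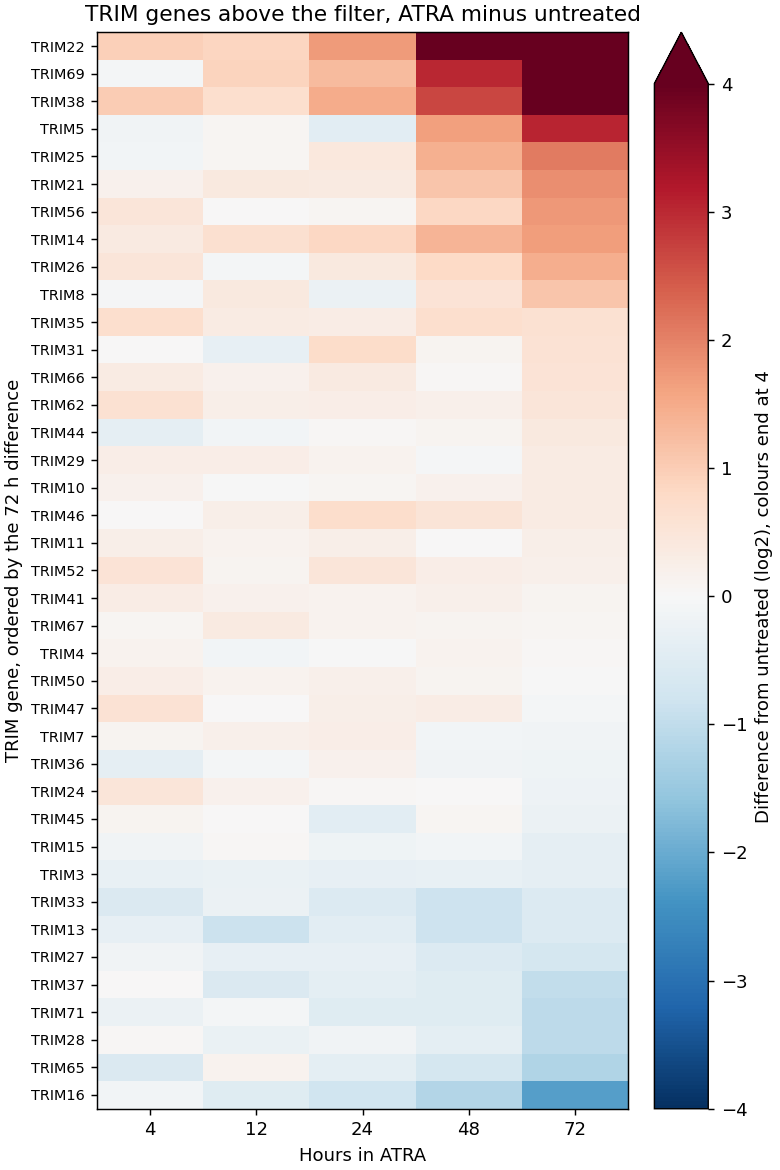
Log2 difference from untreated cells (colour) for the 39 TRIM members above the filter (rows) at each time in ATRA (columns), 1 array per time, with all differences over 4 in the darkest red. The 10 members that were 2-fold or more higher at 72 h stand at the top, most of them pale until 24 h, and 25 members stay within 2-fold at every time.

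Promoter windows from RefSeq matched 43 of the 55 members and run 250 bases before to 50 after a gene start. TRIM22 and TRIM8, both higher at 72 h, had no window. The core of the interferon-stimulated response element, read as GAAA, any 2 bases and GAAA on either strand, occurred in 5 of the 8 higher members with a window (62.5%), TRIM5, TRIM14, TRIM21, TRIM26 and TRIM69. It occurred in 2 of the 20 other members above the filter (10%), TRIM16 and TRIM44, and in 4.38% of 27305 genes. The gamma-activated site core, TTCNNNGAA, was in none of the 8 and in 5 of those 20 (25%), with 9.38% of all genes. The retinoic acid direct repeat, AGNTCA given a second time after any 5 bases on either strand, was in none of the 8 and in TRIM31 of the 20, with 0.0989% of all genes. A match is a stretch of letters, not evidence of binding, and the motifs were chosen with the members' values known.

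The 5 windows with a match to this element core are shown, and that of TRIM38, which rose and has no match. They are given on the strand of the gene, GRCh38.p14, with the matched letters in capitals. They lie at chr9:98119173-98119472 (TRIM14, minus strand), chr11:5685025-5685324 (TRIM5, minus), chr15:44736278-44736577 (TRIM69, plus), chr6:30213357-30213656 (TRIM26, minus), chr11:4393653-4393952 (TRIM21, minus) and chr6:25962552-25962851 (TRIM38, plus).
TRIM14: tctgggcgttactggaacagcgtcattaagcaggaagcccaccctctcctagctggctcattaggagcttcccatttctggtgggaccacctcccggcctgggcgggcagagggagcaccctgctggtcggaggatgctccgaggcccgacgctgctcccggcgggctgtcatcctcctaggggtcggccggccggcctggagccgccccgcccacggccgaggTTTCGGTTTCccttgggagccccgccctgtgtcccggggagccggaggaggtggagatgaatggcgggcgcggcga
TRIM5: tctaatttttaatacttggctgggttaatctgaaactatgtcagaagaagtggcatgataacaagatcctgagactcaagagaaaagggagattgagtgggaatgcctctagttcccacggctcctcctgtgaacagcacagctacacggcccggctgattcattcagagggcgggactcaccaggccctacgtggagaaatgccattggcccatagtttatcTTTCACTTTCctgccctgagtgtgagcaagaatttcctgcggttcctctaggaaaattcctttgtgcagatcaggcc
TRIM69: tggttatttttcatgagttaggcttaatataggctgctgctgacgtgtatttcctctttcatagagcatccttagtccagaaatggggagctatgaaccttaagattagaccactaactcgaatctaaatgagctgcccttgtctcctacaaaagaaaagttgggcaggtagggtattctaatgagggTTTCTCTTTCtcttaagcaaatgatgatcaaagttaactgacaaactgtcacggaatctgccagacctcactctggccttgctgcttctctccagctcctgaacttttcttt
TRIM26: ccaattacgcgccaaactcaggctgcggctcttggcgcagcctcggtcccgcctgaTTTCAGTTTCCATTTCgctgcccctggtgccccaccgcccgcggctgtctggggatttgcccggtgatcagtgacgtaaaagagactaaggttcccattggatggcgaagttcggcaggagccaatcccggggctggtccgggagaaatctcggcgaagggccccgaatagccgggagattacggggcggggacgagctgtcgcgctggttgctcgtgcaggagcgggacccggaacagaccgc
TRIM21: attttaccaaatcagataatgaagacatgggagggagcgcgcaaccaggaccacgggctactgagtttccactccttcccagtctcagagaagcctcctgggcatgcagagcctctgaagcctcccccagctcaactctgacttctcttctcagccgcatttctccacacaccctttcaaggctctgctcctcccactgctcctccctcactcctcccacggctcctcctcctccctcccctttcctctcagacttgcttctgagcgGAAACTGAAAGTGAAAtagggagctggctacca
TRIM38: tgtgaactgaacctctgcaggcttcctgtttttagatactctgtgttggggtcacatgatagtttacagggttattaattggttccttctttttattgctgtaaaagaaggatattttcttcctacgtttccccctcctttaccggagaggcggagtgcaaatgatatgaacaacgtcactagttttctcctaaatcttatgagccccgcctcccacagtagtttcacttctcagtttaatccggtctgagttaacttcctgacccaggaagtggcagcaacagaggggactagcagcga

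In TRIM14, TRIM5 and TRIM69 the match begins 26, 27 and 62 bases before the gene start. TRIM26 holds 2 overlapping matches that begin 194 and 188 bases before it, and TRIM21 2 overlapping ones that begin 18 and 24 bases into the gene. TRIM25 and TRIM56, both higher at 72 h, have no match in their windows.

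TRIM22, an antiviral member that acts on retroviral transcription and on influenza virus nucleoprotein, differed most of all members. It read 3.88 in untreated cells, then 4.83, 4.74, 5.58, 9.87 and 11.39 in the order of the times. Every array of treated cells lay above the untreated one and the last 2 far above the rest, and the step between 24 and 48 h, 4.29, was its largest. TRIM22 was 3.24-fold above untreated cells at 24 h, 63.5-fold at 48 h and 182-fold at 72 h, and its slope was 1.53 ± 0.24 per time step (SE, limma adjusted p = 0.00647). TRIM22 has a single probe set of 1 gene.

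TRIM69, an interferon-inducible member known to restrict vesicular stomatitis virus, read 4.31, 4.24, 5.21, 5.57, 7.33 and 9.08 at 0, 4, 12, 24, 48 and 72 h. Every array after 4 h was higher than the one before it. It was 27.3-fold higher at 72 h, with a slope of 0.96 ± 0.13 (SE, limma adjusted p = 0.00361). A second TRIM69 probe set did not share this course, with a difference of -0.44 at 72 h.

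TRIM38, which dampens toll-like receptor and RNA-sensor signalling, lay highest above untreated cells at 4 h. It read 5.24 in untreated cells, then 6.25, 5.92, 6.72, 7.91 and 9.49 at 4, 12, 24, 48 and 72 h. It was the single member to reach 2-fold at 4 h, where 1.74% of all genes were higher by as much and 1.81% lower, and its difference at 12 h was 0.67. The 4 h difference, 1.002, sat at the threshold. It was 0.993 with cyclic loess and 0.595 with the control shift without bioC, and with the shift on all controls it was 1.71, where TRIM22 (1.65), TRIM62 (1.33) and others passed 2-fold too. The slope was 0.77 ± 0.11 (SE, limma adjusted p = 0.0047), and the gene was 18.9-fold higher at 72 h. All 4 of its probe sets above the filter were 2-fold or more higher at 72 h, with differences of 1.53 to 4.99, and 3 of the 4 read higher at 4 h than at 12 h.

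TRIM5, whose product binds the capsids of incoming retroviruses, read 5.04, 4.90, 5.12, 4.62, 6.67 and 8.08 at 0, 4, 12, 24, 48 and 72 h. It lay at or under its untreated level up to 24 h apart from a small excess at 12 h, and both later arrays were well above. It was 0.748 times the untreated level at 24 h, 3.10-fold higher at 48 h and 8.21-fold higher at 72 h, with a slope of 0.57 ± 0.16 (SE, limma adjusted p = 0.0444). This call is lost without the 4, 12, 48 or 72 h array (limma adjusted p 0.0988, 0.0834, 0.0899 and 0.345). The second TRIM5 probe set above the filter was so on the 72 h array alone, where it read 3.89, against 2.63 in untreated cells, so its change is not measured on both sides. The TRIM5 window, shown above, holds a match to the response element core.

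TRIM25, the ligase that ubiquitinates the RNA sensor RIG-I and also joins ISG15 to targets, read 8.08, 7.95, 8.16, 8.51, 9.49 and 10.14 over the same times. It rose with a slope of 0.44 ± 0.08 (SE, limma adjusted p = 0.0101) and was 4.19-fold higher at 72 h. Its 2 probe sets were higher by 1.54 and 2.07 at 72 h. TRIM21, the cytosolic antibody receptor known as the autoantigen Ro52, read 6.37, 6.54, 6.76, 6.74, 7.49 and 8.22. It rose by 0.34 ± 0.07 per step (SE, limma adjusted p = 0.0131) and was 3.60-fold higher at 72 h. Without the 72 h array neither trend was called (adjusted p = 0.0667 for TRIM25 and 0.0935 for TRIM21).

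TRIM14, which lacks a RING finger and works as an adaptor of the mitochondrial sensor platform MAVS, had the steadiest course. It read 8.31, 8.66, 8.94, 9.13, 9.67 and 9.99 at 0, 4, 12, 24, 48 and 72 h, each array above the one before. Its slope of 0.33 ± 0.04 had the lowest adjusted p of the members (SE, limma adjusted p = 0.00254), and it was 3.21-fold higher at 72 h. The call rested on 1 of its 5 probe sets above the filter. The other 4 differed by 0.03 to 0.93 at 72 h, were highest at 12 h in all 4 cases, and with the mean of all probe sets the trend was not called (adjusted p = 0.117).

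A further 3 members were 2-fold or more higher at 72 h without a called trend. TRIM56, which takes part in STING and double-stranded RNA signalling, read 6.70, 7.19, 6.71, 6.77, 7.54 and 8.43 (slope 0.28 ± 0.09, SE, limma adjusted p = 0.0724), and its 2 probe sets were higher by 1.73 and 1.62. TRIM26, which acts on the factor IRF3 in the nucleus, read 6.26, 6.75, 6.18, 6.64, 7.06 and 7.71 (slope 0.25 ± 0.07, SE, limma adjusted p = 0.0519). TRIM8, a regulator of cytokine signalling, read 7.02, 6.98, 7.41, 6.80, 7.56 and 8.12 (limma adjusted p = 0.121), and 2 of its 5 probe sets above the filter were 2-fold or more higher at 72 h, the others differing by -0.15 to 0.81. In all 3 the 72 h array was the highest, and no array up to 24 h differed from untreated cells by more than 0.49.

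**Figure D2:**
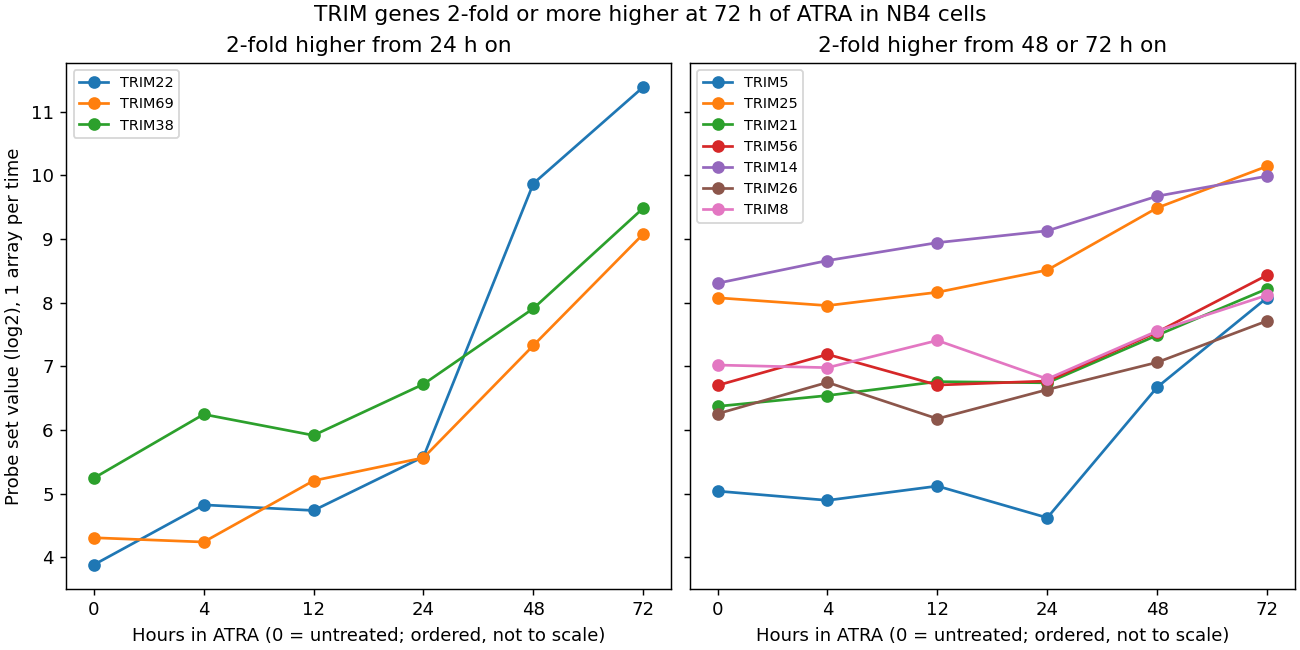
Log2 probe set values (vertical axis) at 0, 4, 12, 24, 48 and 72 h in ATRA (horizontal axis) for the 10 members 2-fold or more higher at 72 h, 1 point per array, with early members in the left panel and late members in the right. TRIM22 climbs from 24 h to 11.39 at 72 h, while TRIM14 shows small steps throughout.

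**Figure D3:**
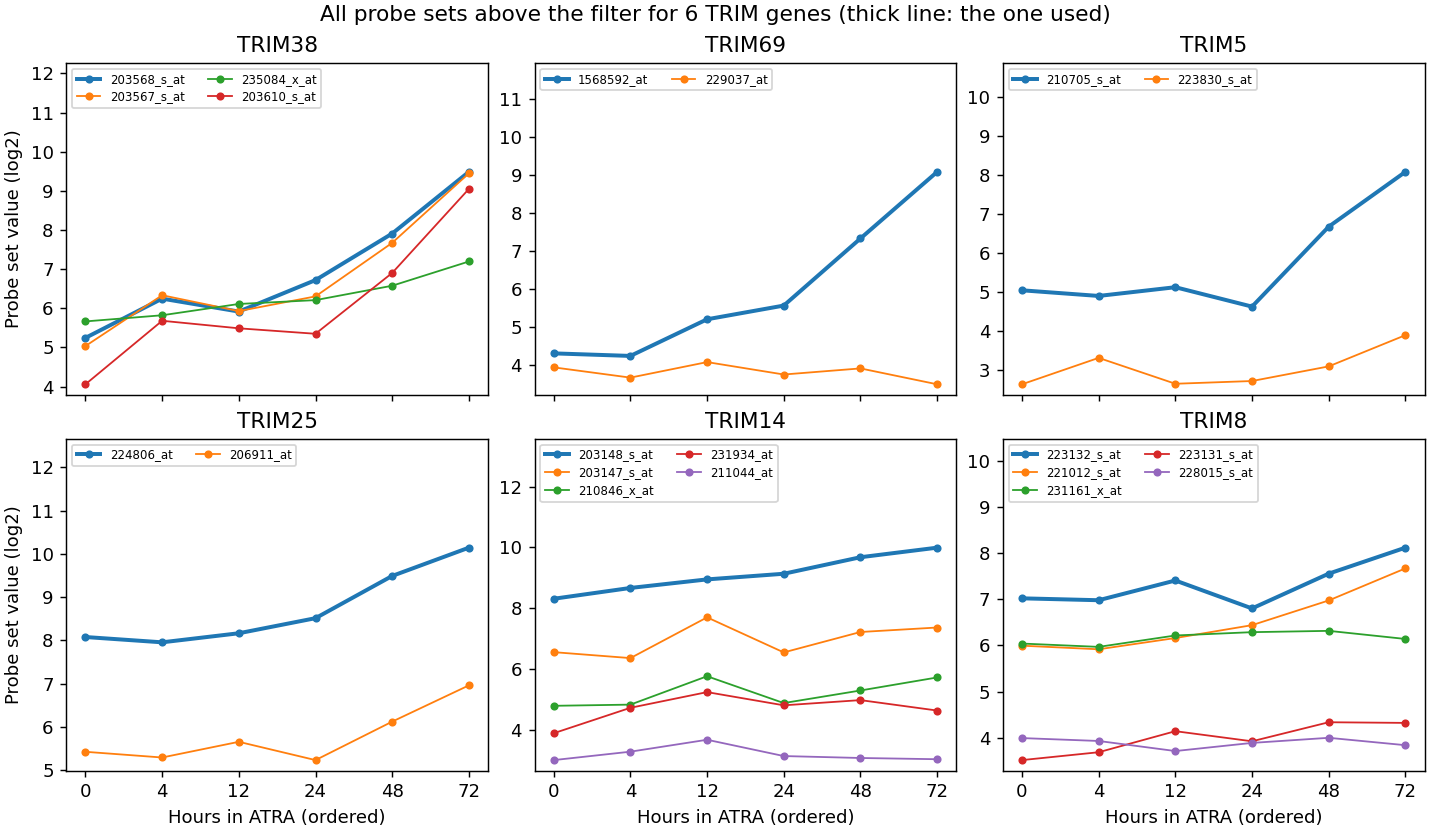
Log2 values of every probe set above the filter for TRIM38, TRIM69, TRIM5, TRIM25, TRIM14 and TRIM8 (thin lines, with the one used as a thick line) at each time in ATRA. The probe sets of TRIM38, TRIM5 and TRIM25 all end above their start, whereas the second of TRIM69 and 4 of the 5 of TRIM14 do not share the course of the one used.

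The members 2-fold or more higher at 72 h were divided by when their difference first reached 2-fold and stayed there. TRIM22, TRIM38 and TRIM69 did so by 24 h and are called early, 3 of 39 members with 2.89% of all genes. The other 7 are called late, with 7.99% of all genes. TRIM5, TRIM14, TRIM21 and TRIM25 started at 48 h (2.63% of all genes) and TRIM8, TRIM26 and TRIM56 at 72 h (5.36%). At 24 h TRIM69 lay just inside the threshold, at 1.26, and TRIM14 just outside it, at 0.82. Because the classes were made from these values, their differences are given without a test. A match to the response element core was in the windows of 1 of 2 early and 4 of 6 late members. TRIM22 (early) and TRIM8 (late) had no window.

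By 24 h the early members had covered 22.6 to 34.8% of their 72 h difference (TRIM22, TRIM69 and TRIM38 at 22.6, 26.3 and 34.8%), and TRIM14, TRIM26, TRIM25 and TRIM21, which are late, had covered 48.9, 26.0, 21.1 and 20.0%. TRIM56 had covered 3.94%, and TRIM5 and TRIM8 were below their untreated level (-13.8 and -19.9%). At 48 h the early members had covered 62.8 to 79.8% and the late members 48.3 to 81.3%. The differences at 72 h were 4.24 to 7.50 in early members and 1.10 to 3.04 in late ones, from the same values that made the classes. All 10 had their largest step in the intervals that end at 48 or 72 h, which was between 24 and 48 h for TRIM22, TRIM69, TRIM5, TRIM25, TRIM21, TRIM14 and TRIM8. Those intervals are the longest of the series, so the largest step is not the fastest change per hour.

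The class of a member depended on the threshold, the scaling, the baseline and the probe set rule. With the mean of all probe sets TRIM69 was late, and TRIM14 and TRIM8 were in neither class. With the mean of the untreated and 4 h arrays as baseline TRIM38 was late. At 3-fold, or with arrays shifted to equal means of the hybridisation controls without bioC, TRIM22 alone was early. With the 4 h array as baseline, an alternative added after the data were seen, TRIM69 alone was early. With the shift on all hybridisation controls 11 members were early, TRIM14, TRIM21, TRIM25 and TRIM26 among them.

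**Figure D4:**
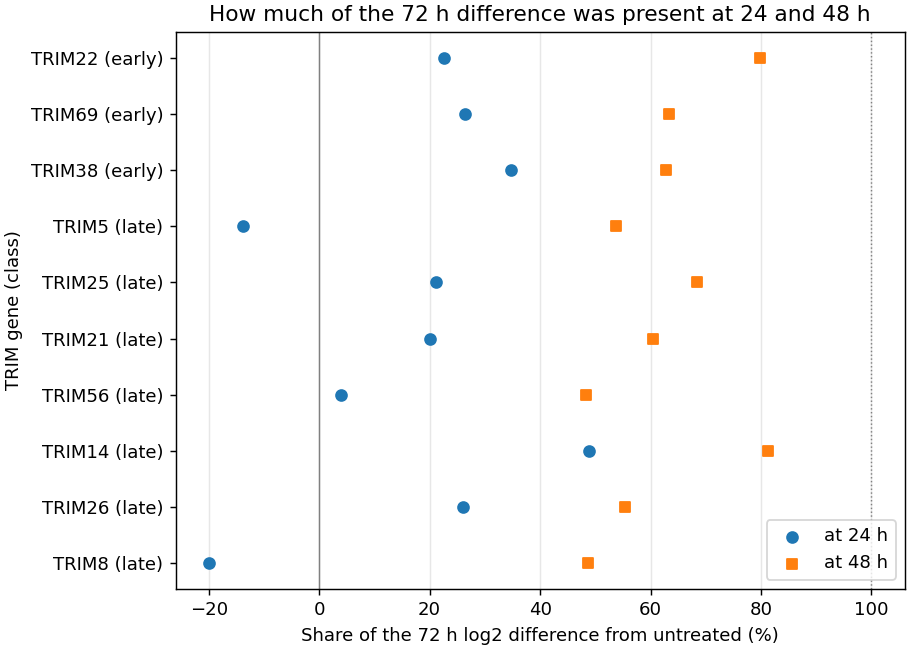
Percentage of the 72 h log2 difference from untreated cells (horizontal axis) that each of the 10 higher members (rows, with their class) had reached at 24 h (circles) and 48 h (squares). The early members lie between 22.6 and 34.8% at 24 h, inside the range of the late members.

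On the lower side, TRIM16 differed most. This member, without a RING finger and known for its part in the autophagy of damaged membranes, read 6.10, 5.99, 5.60, 5.31, 4.92 and 3.90 at 0, 4, 12, 24, 48 and 72 h, each array below the one before. It fell with a slope of -0.42 ± 0.06 (SE, limma adjusted p = 0.0047) and was 4.60-fold lower at 72 h. TRIM16L, an expressed relative of nearly the same sequence, may share its probe set. TRIM16 was also the single member 2-fold lower at 48 h, with 4.49% of all genes.

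TRIM28, the corepressor KAP1 that KRAB zinc finger proteins recruit to silence chromatin, averaged 10.49 over the 6 arrays. It read 10.79, 10.82, 10.53, 10.66, 10.41 and 9.75, close to untreated cells up to 24 h and lowest at 72 h, where it was 2.06-fold lower (slope -0.18 ± 0.05, SE, limma adjusted p = 0.0387). TRIM71, an RNA-binding member also called LIN41, read 7.21, 6.97, 7.14, 6.74, 6.72 and 6.18, and was 2.05-fold lower at 72 h (slope -0.18 ± 0.05, SE, limma adjusted p = 0.0441). TRIM28 loses its call without the untreated, 4, 12 or 72 h array (adjusted p 0.0677 to 0.261), and TRIM71 without any single array of the 6 (adjusted p 0.0604 to 0.353). With cyclic loess neither trend was called and the 72 h differences were -0.69 for TRIM28 and -0.84 for TRIM71. With the shift on all controls they were -0.38 and -0.37 (limma adjusted p = 0.900 and 0.903).

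TRIM65, which ubiquitinates the RNA sensor MDA5, read 6.44, 5.87, 6.57, 6.05, 5.72 and 5.23, and was 2.31-fold lower at 72 h without a called trend (limma adjusted p = 0.0902). It was lower on the 4 and 24 h arrays than on the 0 and 12 h arrays, the same split as the bioC level, whose part in the values was not tested. TRIM37, a ligase of the centrosome, ended just outside the 2-fold mark with a difference of -0.99 (6.74 at 72 h, against 7.72 in untreated cells, limma adjusted p = 0.0544). TRIM27, a ligase first found as a fusion partner of RET, read 8.54, 8.40, 8.21, 8.23, 8.01 and 7.85 (limma adjusted p = 0.0608), and 1 of its 3 probe sets was 2-fold lower at 72 h (-1.41).

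The close relatives of TRIM28 had no called trend. TRIM24, a coregulator of nuclear receptors that include the retinoic acid receptor, read 7.48, 7.97, 7.64, 7.52, 7.48 and 7.27, within 0.69 over all arrays (limma adjusted p = 0.393). TRIM33, which acts on SMAD4, read 7.93, 7.35, 7.70, 7.39, 7.10 and 7.40 (limma adjusted p = 0.25). TRIM66, the fourth member with a PHD finger and bromodomain, differed by 0.55 at 72 h. Among 10 fixed partners of this subfamily, limma called no trend, with 2 at an unadjusted p under 0.05, and the median difference at 72 h was -0.17. The heterochromatin protein CBX5 was lower by 1.75 on the log2 scale and RARA, the retinoic acid receptor gene, higher by 1.03, both without a call.

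In all, 25 of the 39 members stayed within 2-fold of untreated cells at every time in the probe set used (74.8% of all genes did), with differences of -0.99 to 0.73. At 72 h 13 of them lay above and 12 below the untreated value, TRIM35 highest at 0.60 and TRIM37 lowest. TRIM4, TRIM41 and TRIM11 moved over ranges of 0.25 to 0.29 across all 6 arrays in the probe set used. Other probe sets above the filter passed 2-fold in some of these members, TRIM27 (given above), TRIM13, TRIM36 and TRIM4 among them. The differences were -1.59 at 72 h for TRIM13 and -1.20 at 24 h for TRIM4. For TRIM36 it was -1.31 at 72 h, where that probe set read 2.98, below the filter.

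Members known from earlier work as interferon-inducible made up 9 of the 10 that were higher at 72 h. That list was chosen with earlier results of these data known, so the split by it is a description, not a test. It has 11 genes, of which TRIM6 stayed below the filter and TRIM34 has no probe set of its own. All 9 others exceeded untreated cells by 2-fold or more at 72 h, and limma called 7 of them rising. Their median differences were 0.36, 0.39, 0.44, 1.41 and 2.07 at 4, 12, 24, 48 and 72 h. The other 30 members had medians of 0.05, 0.03, 0.08, 0.04 and -0.05, with TRIM8 2-fold higher, 4 members 2-fold lower and 3 called falling. By structure, the 21 members with a B30.2/SPRY domain held all 7 rising members, TRIM16 as 1 of the 3 falling ones, and a median of 0.33 at 72 h. The 4 with a PHD finger and bromodomain had a median of -0.37, and the 6 without a further known domain (TRIM8, TRIM29, TRIM31, TRIM44, TRIM52 and TRIM56) one of 0.50.

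Groups on chromosomes 11 and 6 hold several of these genes. On chromosome 11 TRIM5, TRIM6, TRIM34 and TRIM22 form a group. With RefSeq genes sorted by their lowest coordinate, no other protein-coding gene but the readthrough TRIM6-TRIM34 falls among them. Such sorting does not settle the order of the genes within the group. TRIM5 and TRIM22 rose, whereas TRIM6 stayed below the filter, at or under 2.35 on every array. On chromosome 6 TRIM31, TRIM40, TRIM10, TRIM15, TRIM26 and TRIM39 are adjacent, and TRIM39 has no probe set of its own. TRIM26 was higher by 1.46 at 72 h, TRIM31 by 0.59, TRIM10 by 0.33, TRIM15 differed by -0.36, and TRIM40 stayed below the filter.

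Genes that work with these members were followed as lists, which were chosen with earlier results of these data known. Of 13 interferon signalling genes with values, 7 rose by the limma test (8.33% of all genes), and the median difference was 1.18 at 72 h. IRF7, which drives interferon genes, was higher by 5.59 at 72 h, and IRF9, part of the factor that binds the response element, by 5.19, against 1.02 and 1.18 at 24 h. The kinase JAK2 was higher by 3.83. IFNB1, the interferon beta gene, lay below the filter through 48 h (2.55) and read 6.29 at 72 h, at least 6.16-fold higher, without a called trend (limma adjusted p = 0.122). Of the 12 genes of RNA and DNA sensing and of ISG15 conjugation, 7 rose (8.33% of all genes) and 8 were 2-fold higher at 72 h (10.9%). Their median difference at 72 h was 1.90. ISG15 was higher by 6.25, the sensors IFIH1 and RIGI (MDA5 and RIG-I) by 5.79 and 5.55, and UBE2L6, the E2 enzyme of ISG15, by 3.25. MAVS, the adaptor of both sensors, differed by 0.09.

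IRF1 and STING1, picked after their values were seen, were higher by 2.48 and 1.86 already at 4 h and by 3.73 and 2.68 at 72 h. PML, the TRIM relative of the fusion gene, read 7.40, 7.29, 7.30, 7.66, 8.08 and 8.83 and rose by 0.28 ± 0.07 per step (SE, limma adjusted p = 0.0273). It was 1.44 higher at 72 h, and its probe set may also read the fusion transcript. It was the one gene called among 8 fixed TRIM relatives, of which 4 passed the filter (8.33% of all genes rose). RNF135, another ligase of RIG-I, was 2.01-fold higher at 72 h without a call.

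The enzymes upstream of the ligases were a further list. Of 8 ubiquitin E1 and E2 genes with values, UBE2K fell (-1.43 at 72 h, limma adjusted p = 0.0158), with 9.86% of all genes. None was called rising, 3 had an unadjusted limma p under 0.05, and the median difference at 72 h was -0.51. Of 6 promyelocyte genes with values, KIT stayed below the filter, at or under 3.10. Among the 5 others 3 fell by the limma test (9.86% of all genes). At 72 h MPO was lower by 1.98 and CTSG by 2.42 on the log2 scale, and MS4A3 read 3.39, below the filter, against 9.02 in untreated cells. The other 2 were not called: PRTN3 was higher by 0.31 at 72 h and by 0.89 at 24 h, and AZU1 differed by -0.27 at 72 h.

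**Figure D5:**
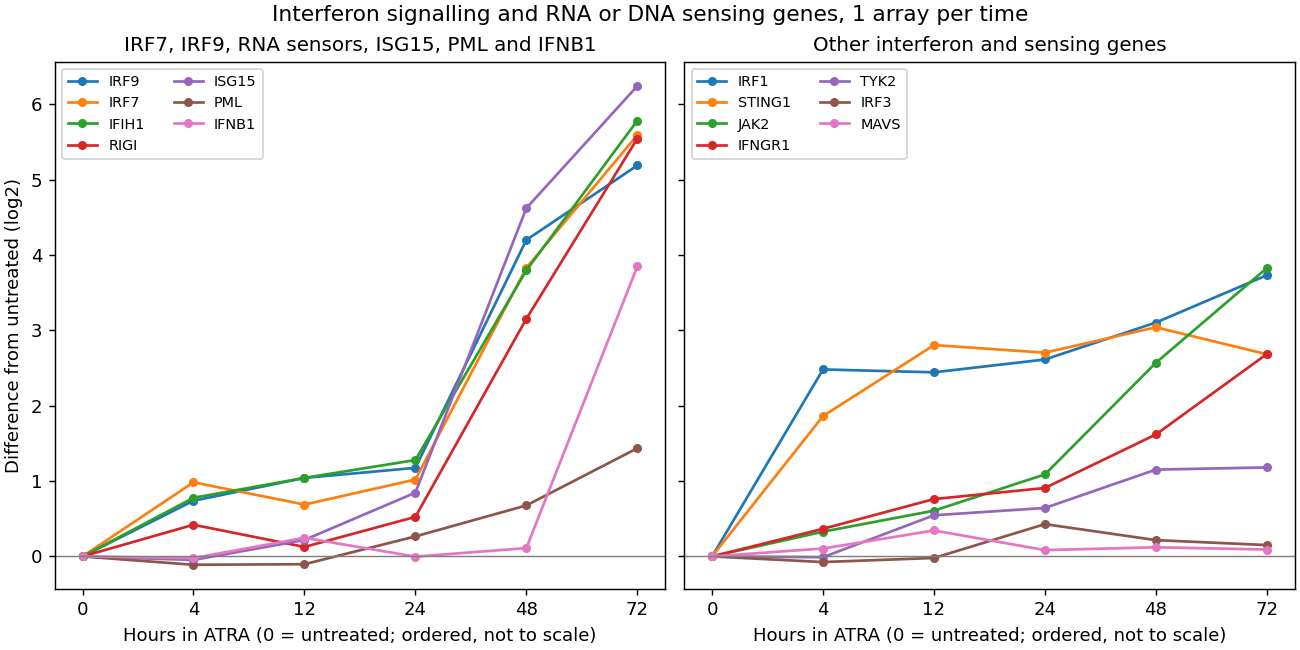
Log2 difference from untreated cells (vertical axis) for interferon signalling and nucleic acid sensing genes at each time in ATRA (horizontal axis), 1 array per time. IRF7, IRF9, IFIH1, RIGI and ISG15 in the left panel stay under 1.3 up to 24 h and exceed 5 at 72 h, and IRF1 and STING1 in the right panel are already above 1.8 at 4 h.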

How the data were processed

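Total RNA of NB4 cells was hybridised to Affymetrix arrays, 1 per time, and each label's time gave its group. The authors deposited log2 summaries of probe sets, with RMA named in the submitters' processing notes. Its version and a genome build were not given in the sources used here. RMA equalises the distributions of arrays, which would hide a common shift of most transcripts. The log2 values lay between 1.39 and 13.6, and 1 array per time limits the precision.

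Of 54675 probe sets, 41097 had 1 gene in the platform annotation, 1801 several and 11777 none. The 62 control probe sets were left out, and symbols of 41037 probe sets were updated to the RefSeq gene table of GRCh38.p14. The 39 members kept were compared with untreated cells as log2 differences, counted at 2-fold, with no test. Where a value lay below the filter of 3.66, that end was set to 3.66 for a fold given as at least a value. Trends over time order (0 to 5) were fitted on all 13594 genes with limma 3.58.1 (R 4.3.3), using lmFit and an intensity-trended eBayes, with Benjamini-Hochberg adjustment. The fit was tested on simulated data.

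Members were named when the trend was called or the difference reached 2-fold on any array, or from a fixed set (TRIM5, TRIM6, TRIM8, TRIM14, TRIM21, TRIM22, TRIM24, TRIM25, TRIM27, TRIM28, TRIM33, TRIM34, TRIM38 and TRIM56). List genes were named when called or 2-fold different at 72 h, up to 4 per list. The members and the lists were chosen with earlier results of these data known. Other settings tried were cyclic loess, shifts on the hybridisation controls, other probe set rules, filters, fold thresholds and baselines, leaving out each array, bioC as a covariate, eBayes without the intensity trend and hours in place of time order.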

Additional observations from a re-analysis of the deposited data

Results flagged for a closer look

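The gene TRIM34, a close relative of TRIM5 in the chromosome 11 group, has probe sets that also read the readthrough TRIM6-TRIM34, so they were left out of the comparisons above. Both read higher at 72 h than in untreated cells. The first read 4.13, 4.28, 4.65, 4.22, 5.79 and 6.80 at 0, 4, 12, 24, 48 and 72 h, a difference of 2.67 on the log2 scale at 72 h. The second read 2.71, 2.95, 3.03, 2.85, 4.02 and 3.95, a difference of 1.24, with its values up to 24 h below the filter of 3.66. Which of the genes gave the signal was not tested.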

How the results depend on the processing

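With 1 array per time, no result has a replicate. No paired analysis was possible because each time has 1 array and its replicate number only names a sample. Rising members numbered 7 and were 6 to 10 in 16 of 18 alternatives, but 4 without the 72 h array (7 at an unadjusted limma p under 0.05, 3.24% of all genes) and 2, TRIM25 and TRIM69, within the 4, 24, 48 and 72 h arrays (9 unadjusted, 2.2% of all genes). That last setting and the 4 h baseline were added after the data were seen. Falling members, 3 as reported, were 1 with cyclic loess (7.82% of all genes) and without the untreated, 4, 12 or 72 h array (1.98 to 7.61%), 5 of 23 with the filter at percentile 75 (16.5%), 5 with hours in place of time order (13.1%) and 7 with the control shift without bioC (24%). They were 0 with the shift on all controls (1 at an unadjusted limma p under 0.05, 0.353% of all genes) and within the 4, 24, 48 and 72 h arrays (6 unadjusted, 0.942%). Members 2-fold higher at 72 h were 16 with the shift on all controls, with 23.8% of all genes, and 8 to 12 in the others.
Members 2-fold lower at 72 h, 4 as reported, were 2 with cyclic loess (8.56% of all genes) and with both other baselines (10.9 and 10.4%), 1 with the shift on all controls (3.65%) and at 3-fold (4.27%), and 8 with the shift without bioC, with 28.3% of all genes. Early members were 11 with the shift on all controls and 1 with the shift without bioC and at 3-fold, and late members were 5 to 8. These shifts moved all genes by 0.66 and -0.56 on the log2 scale at 72 h. Of 180 refitted slopes of the 10 called members, 145 kept their call, 35 kept their direction without it and 0 reversed. TRIM69 kept its call in all 18 alternatives (highest limma adjusted p = 0.0406), TRIM5 in 11, TRIM28 in 10 and TRIM71 in 7.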
